A study of Mus musculus with 16 samples.

Results

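The glycolysis and hypoxia response genes are 34 genes named in a fixed list: 2 glucose transporters, the enzymes from hexokinase to pyruvate kinase, a regulator of glycolytic flux, the genes that make and export lactate or admit pyruvate to the mitochondria, 2 phosphoglucomutases, and 4 genes of the hypoxia response. The rule names the genes and uses no measured value. All 34 were found among the 27128 genes of the tables. A filter at a mean of 1 CPM (read counts put on the same total in each library) over the 12 RNA libraries kept 14301 genes, among them 33 of the 34. Vegfa, the secreted growth factor of blood vessels, was the member that did not pass. The deposited row Pkm2 is the gene now called Pkm. By transcript, the row named Pgm1 is the gene now called Pgm2, and the row named Pgm2 is the gene now called Pgm1; the deposited names are kept here.

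The RNA came from male germline stem cells of the mouse in culture, the stem cells of the sperm lineage, taken at postnatal day 5.5. The strain of every group was B6;CBA-Tg(Pou5f1-EGFP)2Mnn/J, in which GFP reports the promoter of Pou5f1 (Oct4). In every group the starting cells were sorted as Oct4-positive and KIT-negative and grown in StemPro-34 SFM with GDNF, bFGF and EGF. In the feeder-removal experiment, day 0 cells grew on mouse embryonic fibroblasts (MEF), and the day 4 and day 9 cells had been moved from MEF to Matrigel, a basement membrane extract. In the density experiment an epithelial-like culture grew on 0.1 µg/cm2 Matrigel and a mesenchymal-like culture on 10 µg/cm2. In the sorting experiment, fractions with low, mid and high GFP were sorted from cultures on 10 µg/cm2 Matrigel. In the inhibitor experiment, cells on MEF received the solvent DMSO or UNC0638, an inhibitor of the histone methyltransferase G9a, at 0.5, 1 or 2 µM for 48 hours. Each group had 1 library, so no difference has a replicate check, no p-value is given, and a library's own deviation cannot be told apart from its group's. Each experiment also held its own groups, so experiment and technical batch cannot be told apart.

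Glycolysis splits glucose into pyruvate in the cytosol and yields ATP without oxygen. Pyruvate is then reduced to lactate and exported, or admitted to the mitochondria by the pyruvate dehydrogenase complex, which the pyruvate dehydrogenase kinases switch off. When oxygen is low, the prolyl hydroxylases stop marking HIF1A for destruction, and HIF1A with ARNT binds a short DNA core near many glycolytic genes. Spermatogonial stem cells are known for a glycolytic metabolism, and late male germ cells replace several of these enzymes with isozymes made only in the testis.

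The promoters of the members were read because many of these genes are known HIF1A targets. RefSeq promoter windows of build GRCm38.p6, from 250 bases before the transcript start to 50 after it, were found for 33 of the 34 genes; Slc2a3 was not matched. The searched letters were ACGTG and GCGTG, the 2 forms of that core, on both strands and in any window of a gene. They occurred for 29 of 33 members (87.9%), for 46.7% of 27025 genes with a window, and for 68.4% of the 9762 genes with a window that passed the filter. ACGTG alone occurred for 22 members (66.7%), for 21.8% of all genes and for 29.7% of those past the filter. ACGTG is contained in CACGTG, the core of the E-box bound by MYC and USF, which occurred for 7 members (21.2%), for 8.09% of all genes and for 12.2% of those past the filter. Members often have several windows: counted singly, 37 of 48 member windows (77.1%) held either core, against 43.8% of 32851. A match is a run of letters and not a measured binding site. Shown are the 250 bases before the start of 6 members whose levels are described further on, with ACGTG or its reverse complement CACGT in capitals; Pfkl is shown as a member without it. The stretch of Pgk1 (phosphoglycerate kinase) lies at chrX:106186850-106187099 on the plus strand, Ldha (lactate dehydrogenase A) at chr7:46845554-46845803 plus, Slc2a1 (the glucose transporter GLUT1) at chr4:119108495-119108744 plus, Bnip3 (a mitophagy receptor) at chr7:138909507-138909756 minus, Egln3 (the prolyl hydroxylase PHD3) at chr12:54203875-54204124 minus, and Pfkl (liver-type phosphofructokinase) at chr10:78009808-78010057 minus.
Pgk1: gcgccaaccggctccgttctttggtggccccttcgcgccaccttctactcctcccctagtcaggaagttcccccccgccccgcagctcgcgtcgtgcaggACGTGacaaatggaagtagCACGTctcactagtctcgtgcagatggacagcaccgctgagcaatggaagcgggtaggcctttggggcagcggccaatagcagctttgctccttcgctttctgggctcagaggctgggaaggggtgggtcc
Ldha: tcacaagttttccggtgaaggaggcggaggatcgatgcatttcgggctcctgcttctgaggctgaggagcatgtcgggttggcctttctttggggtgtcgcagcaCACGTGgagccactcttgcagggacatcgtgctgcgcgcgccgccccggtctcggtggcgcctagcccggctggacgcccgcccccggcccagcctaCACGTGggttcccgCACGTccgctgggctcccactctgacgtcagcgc
Slc2a1: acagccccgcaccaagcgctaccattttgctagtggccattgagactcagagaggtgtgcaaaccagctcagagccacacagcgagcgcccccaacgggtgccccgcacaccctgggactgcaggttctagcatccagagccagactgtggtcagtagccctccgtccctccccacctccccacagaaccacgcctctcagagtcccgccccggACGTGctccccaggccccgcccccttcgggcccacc
Bnip3: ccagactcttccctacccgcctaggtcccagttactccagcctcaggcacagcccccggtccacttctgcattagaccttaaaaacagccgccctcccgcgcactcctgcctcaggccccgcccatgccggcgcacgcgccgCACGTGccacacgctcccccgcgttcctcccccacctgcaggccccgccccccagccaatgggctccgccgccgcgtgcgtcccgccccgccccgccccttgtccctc
Egln3: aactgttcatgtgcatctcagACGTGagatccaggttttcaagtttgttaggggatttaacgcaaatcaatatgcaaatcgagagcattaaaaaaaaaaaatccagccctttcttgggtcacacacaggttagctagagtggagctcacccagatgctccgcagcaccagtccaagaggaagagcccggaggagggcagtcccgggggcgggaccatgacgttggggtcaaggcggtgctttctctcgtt
Pfkl: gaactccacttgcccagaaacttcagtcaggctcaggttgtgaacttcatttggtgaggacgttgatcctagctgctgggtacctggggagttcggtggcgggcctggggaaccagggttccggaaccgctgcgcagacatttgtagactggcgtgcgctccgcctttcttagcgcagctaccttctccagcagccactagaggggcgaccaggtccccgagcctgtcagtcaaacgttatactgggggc
The runs in capitals began 150 and 131 bases before the start in Pgk1, and 145, 48 and 34 bases before it in Ldha, where the outer upstream run and the middle run are E-boxes. The single runs began 36, 108 and 229 bases before the start in Slc2a1, Bnip3 (an E-box) and Egln3. Pfkl held GCGTG once.

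Library totals ranged from 4335185 to 12019651 expected counts, and 3 counts, the smallest level taken as visible, stood for 0.238 to 0.724 CPM. The germ cell label was checked on 18 germ cell markers, all detected in all 12 libraries, with summed levels of 2532 to 4693 TPM (a value per transcript length on a fixed total). Markers of other cells moved between libraries, counted here as 20 fibroblast and 15 myeloid genes. The summed fibroblast level was 212 TPM in the epithelial-like and 4236 TPM in the mesenchymal-like library, 316 to 335 TPM in the feeder-removal libraries, 160 to 247 TPM in the sorted fractions, and 1682, 865, 419 and 567 TPM with DMSO and 0.5, 1 and 2 µM UNC0638. The summed myeloid level was 2806, 2557 and 369 TPM in the low, mid and high GFP fractions, where most of it was Lyzs, and at most 92.0 TPM elsewhere. In the other 9 libraries 2 to 10 of the 15 myeloid markers were at 0 counts; Tyrobp and Lyz were at 0 in 8 of them, while Cd68, Fcer1g and Cd14 had counts in all 9, and Lyzs was at 15.5 CPM in the epithelial-like library and 30.2 CPM in the mesenchymal-like one. In bulk RNA, fewer cells of a type and less RNA per cell cannot be told apart.

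Compared per length, the most abundant members were enzymes of 6 separate steps of the pathway. Over the 12 libraries, 6 members had a median of at least 500 TPM: Gapdh (glyceraldehyde-3-phosphate dehydrogenase, 2008 TPM), Pkm2 (pyruvate kinase, 881), Eno1 (enolase, 782), Pgam1 (phosphoglycerate mutase, 719), Gpi1 (glucose phosphate isomerase, 671) and Aldoa (aldolase A, 588). Phosphoglycerate kinase was low between them: Pgk1 had a median of 42.1 TPM, although its enzyme acts between those of Gapdh and Pgam1. The steps on either side of Gpi1 were low as well. The hexokinases Hk1 and Hk2 summed to 38.1 to 63.1 TPM in a library and the phosphofructokinases Pfkl, Pfkm and Pfkp to 31.1 to 66.4 TPM. At the low end, 8 members had medians under 10 TPM: Egln3, Pfkl, Pdk2 and Slc16a3 (the lactate exporter MCT4) between 6.11 and 8.95, Pfkfb3 (which makes fructose 2,6-bisphosphate, the activator of phosphofructokinase) at 2.645, Eno2 at 2.545, Pgm1 at 1.375 and Vegfa at 0.51. Many of these genes have near-identical processed copies, among them Gapdh, Pgk1, Tpi1, Eno1, Aldoa, Pgam1, Ldha and Pkm2, and their levels are uncertain to the extent that the authors' counting divided reads with those copies.

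**Figure D1:**
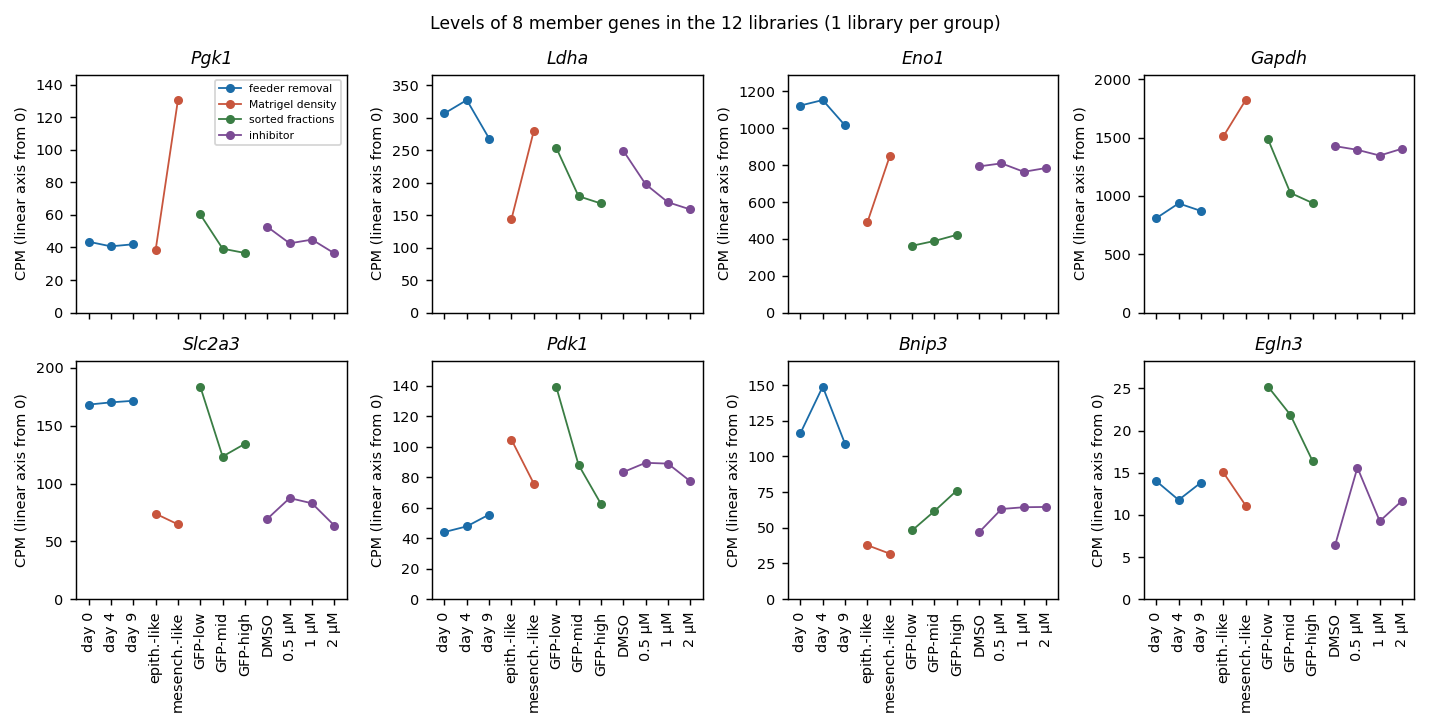
Levels of 8 members in CPM (vertical axes, linear from 0) in the 12 libraries (horizontal axes), with 1 point per library and lines joining the libraries of an experiment. Pgk1 stood at 131 CPM in the mesenchymal-like library and at 36.4 to 60.3 CPM in the other 11, while Eno1 and Slc2a3 differed mainly between experiments.

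Within most enzyme steps 1 isozyme held most of the deposited TPM in every library. Eno1 held 95.7% to 98.9% of enolase, Aldoa 87.0% to 94.9% of the pair with Aldoc (the neural aldolase), Slc16a1 (the lactate transporter MCT1) 89.6% to 96.8% of the pair with Slc16a3, and Ldha 78.2% to 94.2% of the pair with Ldhb. Pdk3 held 70.4% to 90.1% of the 3 member kinases Pdk1, Pdk2 and Pdk3. These shares compare genes within a library and do not depend on the scaling between libraries.

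The shares at the entry of the pathway were less one-sided and differed between experiments. Slc2a1 held 47.3% to 48.4% of the glucose transporter pair in the feeder-removal libraries, the rest being Slc2a3 (the high-affinity transporter GLUT3), and 56.8% to 76.1% in the other 9. Hk1 held 49.2% to 50.1% of the hexokinase pair in the feeder-removal libraries and 53.5% to 77.0% in the others, with the highest share in the mesenchymal-like library. Pfkp (the platelet type) was the leading phosphofructokinase in the feeder-removal libraries, at 56.7% to 58.2%, and Pfkm (the muscle type) in the other 9, at 39.3% to 61.1%. Pfkl held 5.88% in the epithelial-like library and 23.4% in the mesenchymal-like library, the lowest and the highest of the 12.

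**Figure D2:**
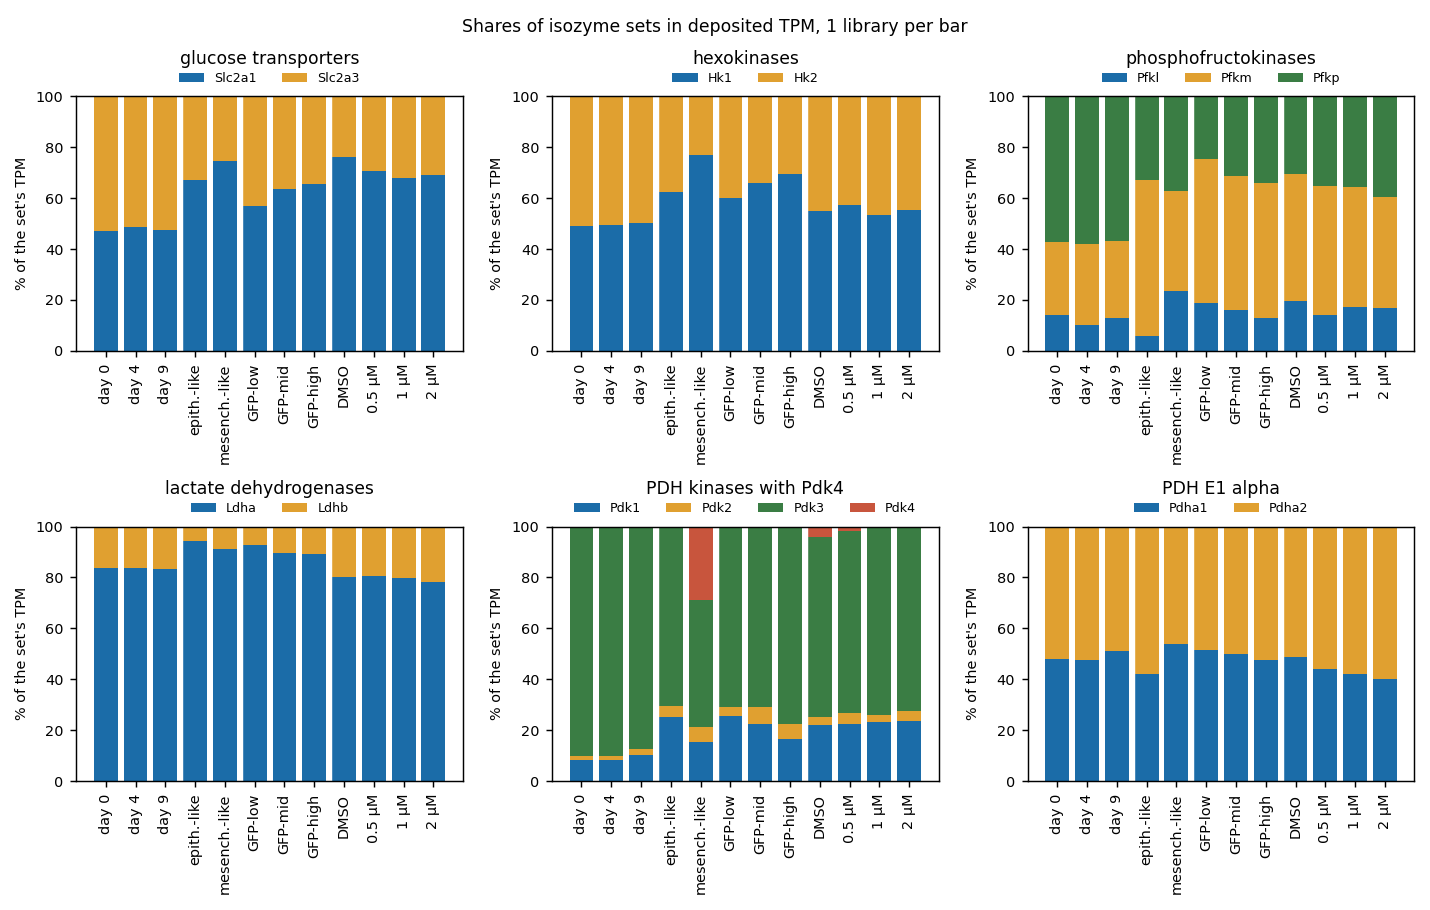
Percent of the summed deposited TPM of 6 isozyme sets (vertical axes) held by each gene, with 1 bar per library. In the feeder-removal libraries Pfkp held 56.7% to 58.2% of phosphofructokinase, and Pdk4 reached 28.8% of the kinases in the mesenchymal-like library.

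Testis isozymes outside the members were read from a list of other glycolytic isozymes. Gapdhs, the sperm form of glyceraldehyde-3-phosphate dehydrogenase, had 0 counts in all 12 libraries. Pgk2, the form of phosphoglycerate kinase made from meiosis on, reached at most 1.56 CPM, and 7 libraries had 3 counts or fewer. Ldhc, the testis lactate dehydrogenase, held 2.83% to 11.3% of the TPM of Ldha, Ldhb and Ldhc, with the highest share in the GFP-high fraction. Pdha2, the intronless testis copy of Pdha1, held 46.0% to 59.9% of their summed TPM, beside 56.4 to 91.5 TPM of Pdha1 itself, which encodes the E1 alpha subunit of pyruvate dehydrogenase. The copies resemble each other in sequence, so this split is uncertain.

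The density experiment compared the epithelial-like with the mesenchymal-like culture, and 5 members rose at least 2-fold in the mesenchymal-like library while none fell by that much. They were Pfkl, Pgk1, Ldhb, Slc16a3 and Pgm1. Of all 14301 genes 12.5% passed 2-fold in either direction and 10.7% in the upward direction, so 5 of 33 (15.2%) is near the background. The median log2 ratio of the 33 members was 0.27 and that of all genes -0.06. With a filter at 10 CPM these medians were 0.12 and -0.09. Of the members 20 were higher and 13 lower (60.6% higher, where 45.5% of all genes were higher and 54.4% lower). When ratios were centred on the germ cell markers, 30 of 33 members were higher (70.7% of all genes were) and 10 passed 2-fold upward (14.8% of all genes did); 16 of the 18 germ cell markers were lower in the mesenchymal-like library, none of them 2-fold.

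Pgk1 rose with the narrowest interval of the 5. It stood at 38.3 CPM in the epithelial-like and 131 CPM in the mesenchymal-like library, a log2 ratio of 1.75 with a counting interval of 1.52 to 2.03. This interval is a 95% Clopper-Pearson interval on the read split, taken without the pseudocount of 1 that the ratio has, and it covers counting error only. Pfkl rose from 3.99 to 26.3 CPM (log2 ratio 2.45, 1.98 to 3.55). Both libraries bounded the range of Pfkl, since the other 10 lay between 9.90 and 25.6 CPM. In lactate metabolism Ldhb, the heart form of lactate dehydrogenase, rose from 6.57 to 20.04 CPM (1.47, 0.98 to 2.28), and the epithelial-like value was the lowest of the 12. Ldha was at 144 and 279.8 CPM, just short of 2-fold (0.95, 0.82 to 1.10). The exporter Slc16a3 rose from 4.22 to 9.90 CPM (1.06, 0.40 to 2.12), and fell short of 2-fold under 3 of the alternatives tried (total counts, a pseudocount of 5, deposited TPM). The deposited row Pgm1, the gene now called Pgm2 and known mainly as a phosphopentomutase, had 0 counts in the epithelial-like library and 11.6 CPM in the mesenchymal-like library, at least 16.5-fold higher.

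The other steps differed by less. The interval lay above 0 for 17 members and below 0 for 3, and held 0 for 13; over all genes it lay above 0 for 20.8% and below 0 for 22.0%, and it is narrower for genes with more counts. Hk1 was at 47.2 and 89.6 CPM (log2 ratio 0.91), Pfkp at 26.8 and 50.2 CPM (0.88), Tpi1 (triosephosphate isomerase) at 133 and 232 CPM (0.80) and Eno1 at 491 and 849 CPM (0.79). Summed over the 16 genes from hexokinase to pyruvate kinase, the level was 5238 TPM in the epithelial-like and 6578 TPM in the mesenchymal-like library. The 3 members whose intervals lay below 0 were Aldoc, at 53.7 and 39.6 CPM, and the kinases Pdk1, at 105 and 75.8 CPM, and Pdk3, at 143 and 121 CPM. Of the hypoxia genes, Hif1a was at 157 and 169.5 CPM, Bnip3 at 37.8 and 31.9 CPM and Egln3 at 15.02 and 11.1 CPM, and each of these intervals held 0.

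**Figure D3:**
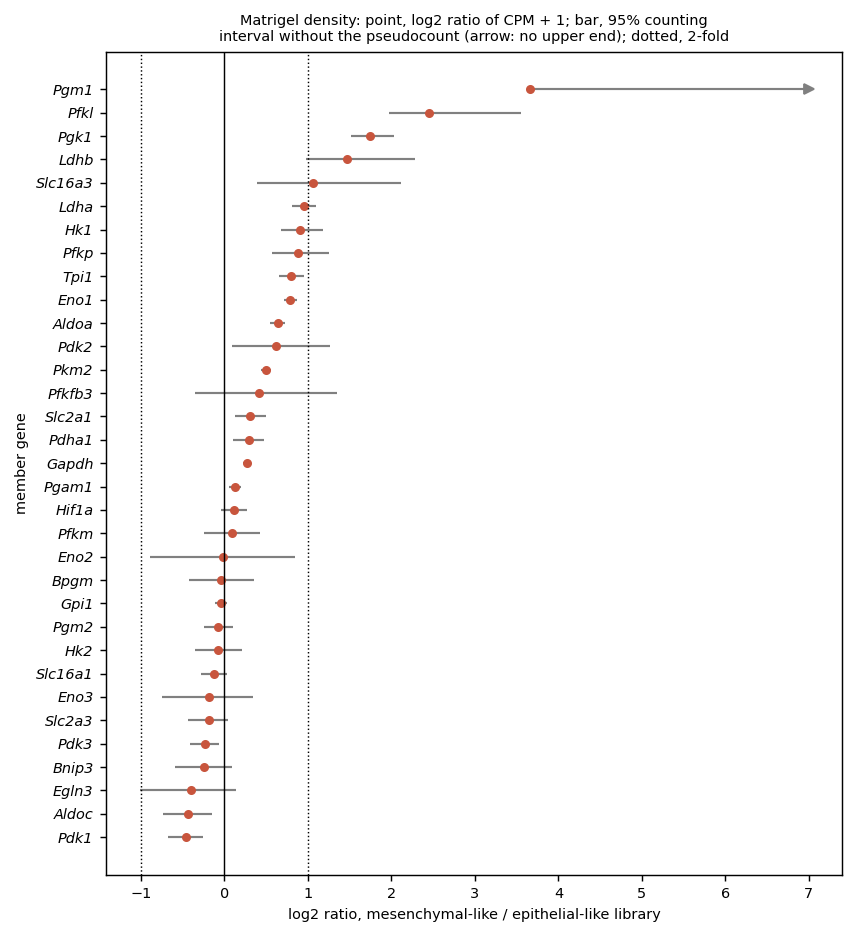
Log2 ratio of the mesenchymal-like over the epithelial-like library (horizontal axis) for 33 members (vertical axis), where points have a pseudocount of 1 CPM, bars are 95% counting intervals without it and dotted lines mark 2-fold. Pgm1, Pfkl, Pgk1, Ldhb and Slc16a3 lie past the upper line, and no member lies past the lower one.

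Among other genes of the pathway, 4 of 18 tested glycolytic isozymes, 4 of 38 other HIF pathway genes, 1 of 23 genes of the pentose phosphate and side branches and 1 of 12 transcription factors of glycolysis rose at least 2-fold, and 1, 0, 2 and 0 fell. Of all genes 10.7% rose and 1.78% fell, so the counts of the HIF pathway genes and the factors that rose are near the background. None of 10 genes for pyruvate entry to mitochondria passed 2-fold. Pdk4, the kinase that shuts pyruvate dehydrogenase in fasting, rose from 1.41 to 124 CPM and took 28.8% of the TPM of the 4 kinases in the mesenchymal-like library, against 0.39% in the epithelial-like. Lox, a HIF target that crosslinks collagen, rose from 22.3 to 1481 CPM, P4ha2 (a collagen prolyl hydroxylase) from 18.5 to 45.9 CPM and Gbe1 (glycogen branching enzyme) from 6.81 to 20.04 CPM. Myc, which encodes an activator of glycolytic genes, rose from 6.10 to 42.7 CPM.

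Fibroblast markers moved with these members: 18 of the 20 rose at least 2-fold, none was at 0 in either library, and their summed level was 212 and 4236 TPM. Their part in the member ratios was not tested. Of 14 tested myeloid markers 13 were also higher (45.5% of all genes were), 3 of them by at least 2-fold (10.7% of all genes). Several of these rest on very few reads. Emr1 was at 0.11 TPM and Ptprc at 0.15 TPM in both libraries. Mpeg1 and Lyz were at 0 in the epithelial-like library and at 0.08 and 0.31 TPM in the mesenchymal-like one.

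The sorting experiment asked how cells with more or less activity of the Pou5f1 reporter differ, and most members were highest in the GFP-low fraction. Of 33 members 23 were highest there (69.7%, against 41.8% of all genes), and 18 were ordered low, mid, high from the highest to the lowest level (54.5%, against 26.9% of all genes). The median member log2 ratio was -0.35 for GFP-mid and -0.45 for GFP-high against GFP-low, and that of all genes was -0.01 and -0.02. Centred on the germ cell markers, which shifts every gene alike, the member medians were -0.18 and -0.23 and those of all genes 0.15 and 0.20. The differences were small: 1 member, Pdk1, passed 2-fold in GFP-high, where 9.54% of all genes did (2.59% downward), and none did in GFP-mid, where 4.06% did. Over the fractions 2 members had a 2-fold range (6.06%, against 11.1% of all genes). They were Pdk1, and Pfkfb3 at 6.02, 8.95 and 3.93 CPM from low to high GFP, a log2 range of 1.01. The interval lay below 0 for 21 members in GFP-mid and 22 in GFP-high (26.8% and 29.9% of all genes), and above 0 for 4 and 2 (21.3% and 25.7% of all genes). Both comparisons share the GFP-low library.

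Pdk1, the HIF-induced kinase that closes pyruvate dehydrogenase, fell from 139.6 CPM in GFP-low to 88.2 in GFP-mid and 62.6 in GFP-high. Its log2 ratio in GFP-high was -1.14 (-1.30 to -1.01), and it fell short of 2-fold with the deposited TPM and with centring on the germ cell markers, where the smallest change was -0.92. GFP-low held the highest Pdk1 value of the 12 libraries. The kinase Pdk2 was at 9.91, 13.7 and 11.99 CPM. Pgk1 was at 60.3, 39.3 and 36.6 CPM, Ldha at 254, 179 and 168 CPM and Gapdh at 1486, 1026 and 939 CPM in the low, mid and high fractions. Their log2 ratios in GFP-high were -0.70, -0.59 and -0.66, and for each of these enzymes most of the difference already lay between GFP-low and GFP-mid. Gpi1, Aldoa, Tpi1, Pgam1, Pkm2 and Slc16a1 had ratios of -0.41 to -0.55 in GFP-high.

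Several members did not share this order. Eno1 was at 363, 389 and 422 CPM, with a log2 ratio of 0.22 (0.15 to 0.29) in GFP-high. Slc2a1 was at 162, 145 and 171 CPM, and its interval in GFP-high held 0 (0.08, -0.02 to 0.19), while Slc2a3 was at 184, 123 and 134 CPM (-0.45, -0.56 to -0.34). The hypoxia group was split. Hif1a, at 193, 146 and 118 CPM (-0.71, -0.83 to -0.60), and Egln3, at 25.2, 21.9 and 16.3 CPM (-0.60, -0.94 to -0.31), did fall from low to high GFP. Bnip3 had the opposite order, at 48.1, 61.7 and 76.1 CPM (0.65, 0.48 to 0.84). Bnip3 and Eno1 were the members whose intervals in GFP-high lay above 0.

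Of the other lists, 3 of 38 HIF pathway genes and 1 of 18 isozymes rose at least 2-fold in GFP-high, and 1 HIF pathway gene fell. Of all genes 6.94% rose and 2.59% fell, so these counts are near the background. Egln1, the main prolyl hydroxylase, rose from 8.78 to 22.3 and 22.0 CPM, Rcor2 from 11.9 to 34.9 and 53.6 CPM and Pgf from 3.01 to 6.65 and 9.55 CPM, while Kdr (a VEGF receptor) fell from 7.27 to 3.80 and 1.70 CPM. Of 12 transcription factors of glycolysis 2 rose: Mycl1 (now Mycl), from 11.7 to 30.3 and 55.5 CPM, and Foxk1, from 14.7 to 25.4 and 32.9 CPM. Of 23 genes of the side branches, Rpia, an enzyme of the pentose phosphate pathway, rose from 6.14 to 14.9 and 13.5 CPM, and Pygl (glycogen phosphorylase) fell from 150.0 to 109 and 72.0 CPM.

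All 14 tested myeloid markers fell at least 2-fold in GFP-high, and their part in the member ratios was not tested. From low to high GFP the myeloid sum was 2806, 2557 and 369 TPM, of which Lyzs alone held 2239, 2073 and 299 TPM. The sum of the 16 glycolytic enzymes was 6216, 4910 and 4984 TPM, or 5837, 4484 and 4272 in CPM. Of 20 fibroblast markers 9 were at least 2-fold higher in GFP-high and none was 2-fold lower (median log2 ratio 0.70), and they summed to 164, 160 and 247 TPM. Of 18 germ cell markers Pou5f1 and Utf1 were at least 2-fold higher and Gfra1, Ret, Nanos2 and Etv5 at least 2-fold lower, with sums of 4380, 4180 and 4638 TPM, or 6643, 5603 and 5399 in CPM. The part of these markers in the member ratios was not tested either.

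**Figure D4:**
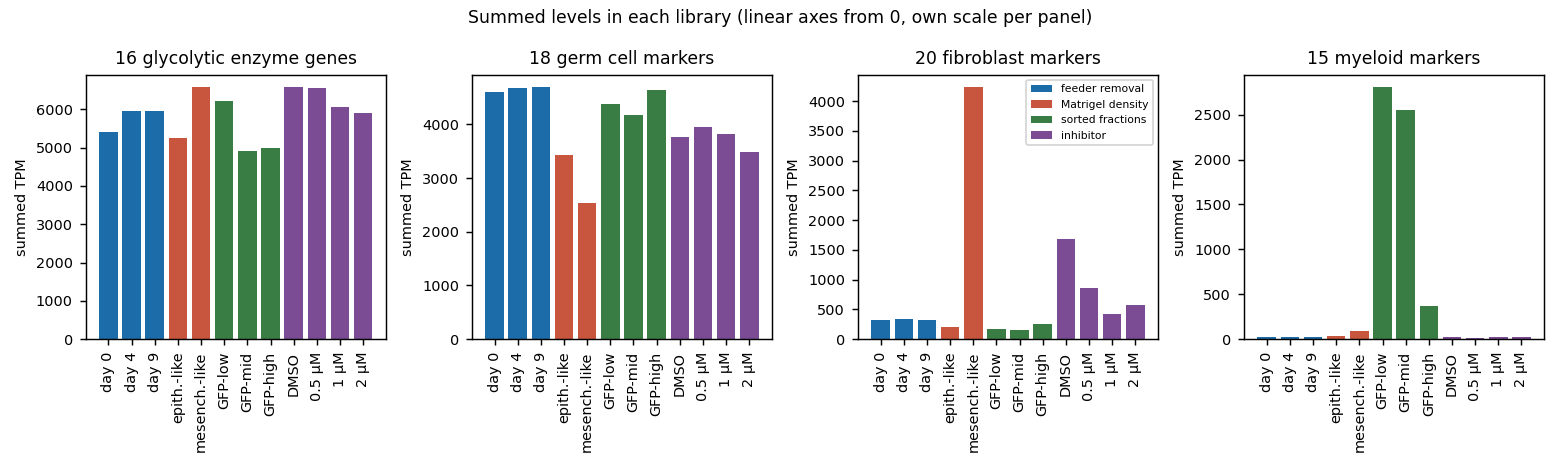
Summed TPM (vertical axes, linear from 0, each panel with its own scale) of 16 glycolytic enzyme genes and of 18 germ cell, 20 fibroblast and 15 myeloid markers, with 1 bar per library. The enzyme sum ranged from 4910 to 6578 TPM, while the fibroblast sum ranged from 160 to 4236 TPM and the myeloid sum was 2806 and 2557 TPM in GFP-low and GFP-mid and at most 369 TPM elsewhere.

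The inhibitor experiment asked what 48 hours of UNC0638 changed, and the members differed little at 0.5 µM and were mostly lower at 2 µM. At 0.5 µM 1 member, Egln3, rose at least 2-fold, where 3.71% of all genes passed in either direction and 1.58% upward; at 1 µM none did, where 6.71% did; and at 2 µM 1 member, Pfkfb3, fell, where 7.01% did in either direction and 3.59% downward. The median member log2 ratios were 0.01, -0.11 and -0.19 at the 3 doses, and those of all genes -0.01, -0.00 and -0.02. Lower than with DMSO were 15, 22 and 29 of 33 members, against 51.6%, 50.4% and 51.7% of all genes. At 2 µM, 20 members had their lowest level of the 4 libraries (60.6%, against 31.2% of all genes), and 6 were ordered by dose from high to low (18.2%, against 7.81%). Centring on the germ cell markers, which shifts every gene alike, left 27, 21 and 24 members lower, against 71.4%, 48.2% and 44.5% of all genes. The 3 doses share the DMSO library.

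All 4 lactate genes were lower at 2 µM than with DMSO, none of them 2-fold. Ldha was at 249 CPM with DMSO and at 198, 169.8 and 159 CPM with 0.5, 1 and 2 µM, a log2 ratio of -0.65 (-0.79 to -0.52) at 2 µM. Ldha was thus ordered by dose, and none of its 3 intervals held 0. Slc16a1, the lactate transporter, was at 245, 224, 212 and 149 CPM (-0.71, -0.85 to -0.58 at 2 µM), and Slc16a3 at 11.6, 11.9, 9.08 and 6.64 CPM (-0.72, -1.50 to -0.13). Ldhb was at 45.9, 35.8, 31.8 and 32.99 CPM.

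At the entry, Slc2a1 was at 149, 142, 119 and 96.0 CPM (-0.63, -0.81 to -0.46 at 2 µM), also in the order of the doses. Pfkm was at 53.9, 50.8, 42.9 and 33.7 CPM (-0.66, -0.98 to -0.38) and Pfkfb3 at 11.8, 10.2, 6.63 and 4.58 CPM (-1.19, -2.17 to -0.61). The fall of Pfkfb3 was short of 2-fold at a pseudocount of 5 and in deposited TPM. Of the 6 most abundant enzymes, Gapdh was at 1427, 1395, 1346 and 1405 CPM and Eno1 at 794, 809.9, 764 and 785 CPM, and both intervals at 2 µM held 0. The intervals of the other 4 lay below 0: from DMSO to 2 µM Pkm2 was at 1395 and 1206 CPM (-0.21), Aldoa at 500.1 and 420.1 CPM (-0.25), Gpi1 at 887 and 771 CPM (-0.20) and Pgam1 at 711 and 645 CPM (-0.14). Against the trend Aldoc was at 48.9, 63.7, 72.1 and 71.0 CPM (0.53, 0.29 to 0.79 at 2 µM).

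The hypoxia members were split. Egln3 rose from 6.39 to 15.6 CPM at 0.5 µM (log2 ratio 1.17, 0.68 to 1.93, short of 2-fold with a pseudocount of 5), and was at 9.25 and 11.7 CPM at 1 and 2 µM. DMSO held the lowest Egln3 value of the 12 libraries, and the values did not follow the dose. Bnip3 was at 46.9 CPM with DMSO and at 63.2, 64.4 and 64.6 CPM, with all 3 intervals above 0 and nearly the same level at each dose. Hif1a was at 226, 199, 169 and 172 CPM (-0.39, -0.53 to -0.26 at 2 µM). Vegfa, under the filter, had between 2 and 10 counts in any of the 12 libraries, with its highest level, 2.00 CPM, in the DMSO library and 0.458 CPM at 2 µM; these are 10 and 2 counts.

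Outside the members, 5, 6 and 6 of 38 other HIF pathway genes fell at least 2-fold at 0.5, 1 and 2 µM and none rose, where 2.13%, 4.12% and 3.59% of all genes fell. Those named by the rule at 2 µM were Epas1 (HIF2A), which fell from 27.1 CPM with DMSO to 10.3 CPM, Adm, from 19.96 to 6.41 CPM, Lox, from 466 to 93.7 CPM, Angptl4, from 63.9 to 21.3 CPM, and Flt1, from 83.6 to 32.99 CPM. Of 18 other isozymes 3 fell and 1 rose at 2 µM, where 3.42% of all genes rose, and Pdk4 fell from 13.2 to 1.60 CPM. Of 12 transcription factors Myc fell, from 14.6 to 5.27 CPM, and Foxk2 rose, from 10.6 to 22.2 CPM. Fibroblast markers fell in the same libraries, 12, 19 and 15 of 20 by at least 2-fold at the 3 doses, and none was at 0. Their sum was 1682, 865, 419 and 567 TPM. The part of the fibroblast transcripts in the member ratios was not tested.

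**Figure D5:**
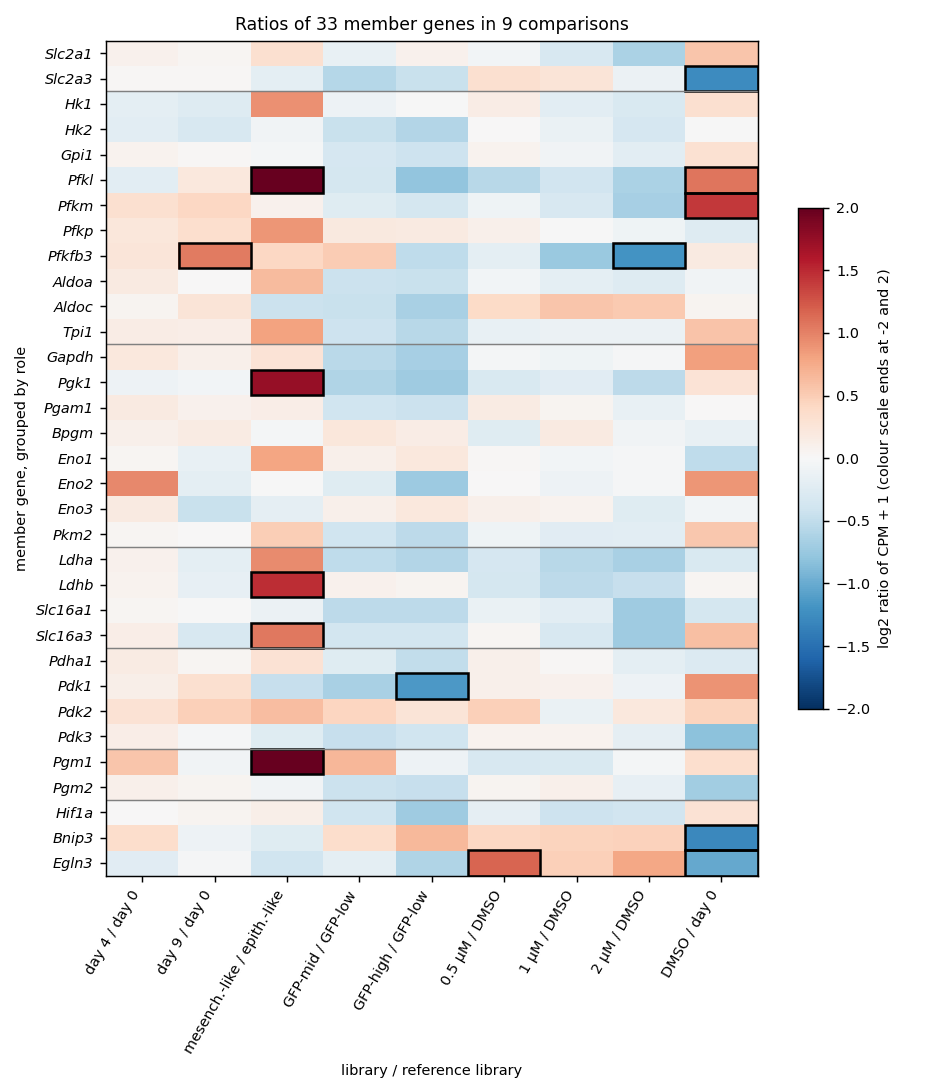
Log2 ratios of CPM + 1 (colour, with the scale ending at -2 and 2) of 33 members (vertical axis, grouped by role) in 9 comparisons (horizontal axis), where a black frame marks at least 2-fold. Frames are few: 5 in the density comparison, 5 between the DMSO and day 0 libraries, and at most 1 in each of the others.

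The feeder-removal experiment asked what followed the move from MEF to Matrigel, and the median range of the members was smaller there than in the other 3 experiments. It was 0.23 over days 0, 4 and 9 on the log2 scale, against 0.32 for all genes, and 0.40, 0.52 and 0.41 in the density, sorting and inhibitor experiments, where all genes had 0.32, 0.41 and 0.50. A range widens with more libraries and with lower depth, and the experiments differed in both. None of the members passed 2-fold at day 4, where 2.28% of all genes did, and 1 did at day 9, where 2.60% did (1.62% upward). At day 4, 28 of 33 members were higher than at day 0 (54.1% of all genes were), with a median log2 ratio of only 0.10 against 0.03, and 24 with DESeq2 size factors. At day 9, 19 were higher (57.6%, against 53.1% of all genes), which is near the background. With the deposited TPM 24 were, but the median log2 ratio of all genes was then 0.13 as well. Over the 3 days 2 members had a 2-fold range (6.06%, against 5.01% of all genes): Pfkfb3, and Eno2 at 1.81, 4.49 and 1.46 CPM (14, 53 and 18 counts). Both comparisons share the day 0 library.

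Pfkfb3 was the member that rose, from 10.2 CPM at day 0 to 12.3 at day 4 and 22.1 at day 9, a log2 ratio of 1.04 (0.75 to 1.49). Day 9 had its highest level of the 12 libraries, and with a pseudocount of 5 the ratio was 0.83. Pfkm was at 19.7, 24.9 and 26.6 CPM (0.41, 0.15 to 0.72 at day 9) and Pfkp at 57.3, 67.2 and 72.3 CPM (0.33, 0.17 to 0.50), while Hk2 was at 89.6, 77.0 and 71.8 CPM (-0.31, -0.46 to -0.17). Glucose transporters differed by less than counting error, with Slc2a1 at 101, 107 and 104 CPM and Slc2a3 at 168, 170.2 and 172 CPM. Of the lactate genes, Ldha was at 307, 327 and 268 CPM (-0.19, -0.27 to -0.12 at day 9) and Slc16a1 at 314, 321 and 314 CPM. Bnip3 was at 116, 149 and 109 CPM, so that its day 4 value stood above both others (0.36, 0.24 to 0.48 at day 4). Hif1a, at 184, 185 and 191 CPM, had intervals that held 0 at both times. Of 38 other HIF pathway genes none passed 2-fold at day 4, and 1 rose and 1 fell at day 9; of 18 other isozymes 1 rose and 1 fell at day 4 and none passed at day 9. Of all genes 1.25% rose and 1.03% fell at day 4, and 1.62% and 0.979% at day 9. The fibroblast sum was 320, 335 and 316 TPM in these 3 libraries, of which Fbln1 alone held 141 to 160 TPM. Single markers moved more: from day 0 to day 9 Acta2 fell from 45.0 to 6.92 CPM, while Tnc rose from 9.59 to 26.4 CPM and Postn from 1.94 to 6.43 CPM. Their part in the member ratios was not tested.

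The feeder-removal libraries as a whole stood apart from the other 9 in 9 members. Pfkp, Eno1, Slc16a1, Pdk3, Pgm2 and Bnip3 were higher in all 3 than in any other library (18.2% of members, against 14.4% of all genes), and Pfkm, Gapdh and Pdk1 were lower (9.09%, against 13.2%). Eno1 was at 1016 to 1154 CPM there and at 363 to 849 CPM elsewhere, and Bnip3 at 109 to 149 CPM and at 31.9 to 76.1 CPM. Both shares are near those of all genes. The DMSO and day 0 libraries, both from cells on MEF without inhibitor, differed at least 2-fold in 5 members, 2 higher with DMSO and 3 lower, where 19.4% of all genes did (12.2% higher and 7.22% lower). Pfkm (19.7 and 53.9 CPM at day 0 and with DMSO) and Pfkl (11.7 and 25.6 CPM) were higher with DMSO, and Slc2a3 (168 and 69.5 CPM), Bnip3 (116 and 46.9 CPM) and Egln3 (14.0 and 6.39 CPM) were lower. Pfkl fell short of 2-fold with a pseudocount of 5, and Egln3 with that and with the deposited TPM. Of 38 other HIF pathway genes 8 were at least 2-fold higher with DMSO and 1 lower, with Epas1 at 2.07 and 27.1 CPM and Lox at 62.4 and 466 CPM. Fibroblast markers summed to 320 TPM at day 0 and 1682 TPM with DMSO, and their part in these differences was not tested.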

How the data were processed

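RNA was measured in 12 libraries made by a modified Smart-seq2 protocol with a Tn5 kit, per the labels' protocols; 4 ATAC-seq libraries were not analysed here. Reads were processed by the authors with Trim Galore and RSEM on mm10, per the submitters' processing notes; the aligner, the annotation release and any treatment of strand are not given in the sources used here. The deposited tables hold RSEM expected counts, not normalized, per the file headers. The deposited TPM are scaled by the authors to transcript length and a fixed total, per the file headers. The deposited FPKM, also per length, served as an alternative for shares. Expected counts were not whole for 8.52% to 10.7% of the genes of a library, as happens when reads are shared between genes, and no pair of tables was identical.

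The expected counts were rounded and scaled to CPM with TMM factors (0.912 to 1.07) from edgeR 4.0.16 in R 4.3.3. The filter kept genes whose mean reached 1 CPM. A comparison took the log2 of CPM + 1 in a library minus that in its reference, which understates changes of low genes, and at least 2-fold was the call. With 1 library per group no test was run, and no trend over dose or day was fitted. Where a library had 3 counts or fewer, the fold was taken against 3 counts in that library. Clopper-Pearson intervals (95%) were taken on how reads divided between a pair of libraries; without molecular identifiers, reads from amplified cDNA are not independent. Counts were simulated for the density comparison (14141 genes) with counting error only, so the coverage of the intervals followed from the design. All 200 genes set to change 4-fold, well past the call, passed with the right sign. They were drawn only from more abundant genes, above the mean levels of Pfkl, Ldhb, Slc16a3 and Pgm1 in that pair. The check therefore says nothing on how low genes are called. Of the unchanged genes 99 were called wrongly, and 96.2% of intervals covered no change.

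The members and the other lists (other glycolytic isozymes, other HIF pathway genes, pyruvate entry, side branches, gluconeogenesis and brakes, transcription factors, and germ cell, fibroblast, myeloid and testis somatic markers) were chosen with earlier results of these data known. None of 5 tested genes of gluconeogenesis and brakes passed 2-fold within an experiment. Of 11 testis somatic markers Cyp17a1, Hsd3b1 and Insl3 were at 0 in all libraries, and the list summed to 5.91 to 18.6 TPM. Any member could be named; of other lists, genes with at least 50 counts in the higher library and a 2-fold change, at most 5 per list and comparison, less 1 gene that is not reported here. The scripts used scipy 1.17.1, pandas 2.3.3, numpy 2.4.6 and, for plots, matplotlib 3.10.9, under Python 3.11.15.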

Additional observations from a re-analysis of the deposited data

How the results depend on the processing

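Of the 297 member ratios 14 were called. These 14 kept their direction under pseudocounts of 0.1 and 5, total counts, DESeq2 1.42.0 size factors, centring on the germ cell markers and deposited TPM. Ratios that were not called did change sign. Centring took the members that were higher from 20 to 30 of 33 for density (all genes: 45.5% to 70.7%). At 0.5 µM it took them from 18 to 6 (all genes: 48.1% to 28.6%). Counts of members past 2-fold moved by over 1.5 times as follows. With a pseudocount of 5 they were 0 at day 9, at 0.5 µM and at 2 µM and 3 for DMSO against day 0. With a pseudocount of 0.1 they were 1 at day 4 and 1 in GFP-mid. With a filter at 10 CPM they were 0 at day 9, 3 for density and 0 at 2 µM; without a filter, 2 at 2 µM. With the deposited TPM they were 0 in GFP-high and 0 at 2 µM. With centring they were 10 for density and 0 in GFP-high. At 1.5-fold they were 1 at day 4, 12 for density, 3 in GFP-mid, 10 in GFP-high, 1 at 1 µM, 8 at 2 µM and 11 for DMSO against day 0. The share of all genes past 1.5-fold was not computed, so whether these counts exceed the background is not known. Centring moved the member medians to 0.54 for density, -0.18 for GFP-mid and -0.23 for GFP-high, and the median of all genes by 0.26, 0.17 and 0.22, and by -0.15 at 0.5 µM. The deposited TPM moved the median of all genes by 0.11 at day 9 and 0.14 in GFP-high. The member medians were then 0.14 at day 9 and -0.30 in GFP-high. A filter at 10 CPM left 28 members, with a median of 0.12 for density. The promoter share was 66.7% with ACGTG alone. None of the 252 isozyme shares moved by as much as 0.5 percentage points with FPKM in place of TPM. Depth limits Vegfa, Pgm1, Eno2, Pfkl (17 counts in the epithelial-like library) and Pfkfb3. No paired analysis was possible because each RNA group had 1 library; replicate numbers are shared only by the ATAC-seq groups, which were not analysed here.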
